A study of Mus musculus with 12 samples.

Results

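Glycolysis is the chain of cytoplasmic enzymes that splits glucose into pyruvate, and the 10 genes described here encode enzymes of that chain and of the step that turns pyruvate into lactate. They are Hk1, Hk2, Gpi1, Pfkl, Aldoa, Gapdh, Pgk1, Eno1, Pkm and Ldha, taken as the rows of 2 count tables whose Ensembl identifiers carry these names in GENCODE for mouse GRCm38. The tables hold 32285 and 56980 identifiers, and 11 rows of each matched the 10 names because Aldoa names a pair of neighbouring identifiers. The longer one, ENSMUSG00000030695, was used, and the other held 0.336 to 5.68 CPM (counts scaled to a common library size) in the first table and 0 in the second.

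RNA had been sequenced in bulk from blood-forming stem cells (HSCs) and from CD169+ macrophages, each sorted from the livers of C57BL/6 embryos at E14.5. Every embryo, controls included, carried floxed alleles of Jag1 (Jag1 f/f), the gene of the Notch ligand Jagged1. The groups differed in the Vav-Cre transgene, whose Vav promoter acts in blood cells: 3 HSC libraries were labelled Cre negative and 3 Cre positive, and 3 macrophage libraries Cre negative and 3 Cre positive. The HSC gate took 2000 cells without DAPI stain that were CD45+, lineage-, cKit+, Sca1+, CD48- and CD150+, and the macrophage sort took 1000 to 3000 cells. Whether libraries of 1 group stem from different embryos is not stated in the labels, and p-values therefore measure the spread between libraries, which may be technical. Since RNA was measured in bulk, fewer cells of a type and less RNA per cell cannot be told apart.

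The hexokinases trap glucose in the cell as glucose 6-phosphate, and phosphofructokinase commits it to breakdown. The enzymes from glyceraldehyde 3-phosphate dehydrogenase to pyruvate kinase recover energy as ATP and NADH, and lactate dehydrogenase returns NADH to NAD+ so that the chain can go on without oxygen. Several steps have isoenzymes from separate genes, and HIF-1, the factor stabilised in low oxygen, and Myc are well-known activators of most of these genes. Adult HSCs are known for their reliance on glycolysis in a low-oxygen marrow.

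The HSC libraries held 51982064 to 77463770 counted reads and the Cre negative macrophage libraries 17230019 to 24658205, whereas the Cre positive macrophage libraries held 2602934 to 5366990. Depth therefore differed by genotype in the macrophage sort. Levels are not compared between the sorts, since the tables were counted separately and mitochondrial ribosomal RNA made up 6.84% to 12.7% of the macrophage counts and 0% of the HSC counts. Jag1 itself was at 6.53, 6.87 and 1.16 CPM in HSC libraries labelled Cre negative and 10.5, 0 and 19.5 CPM where the label says Cre positive, so its count does not separate the HSC labels, which are used as given. In macrophages it was at 52.6, 21.1 and 26.3 CPM against 0, 10.6 and 6.79 CPM, with no overlap (edgeR quasi-likelihood test, unadjusted p = 0.0946). The count covers the whole gene, and the labels do not give which exons are floxed. Of the cell type markers, 12 of 12 HSC markers had reads in every HSC library, where they took 0.0777% to 0.201% of reads, less than the 0.613% to 1.25% of 14 endothelial markers, whereas 12 hepatoblast markers took 0.192% to 0.381%. The endothelial markers took 0.873% to 1.82% of reads in the macrophage libraries against 0.196% to 0.537% for 14 macrophage markers. In Cre negative library 1 the macrophage marker Mrc1 held 22204 reads, whereas Cd68 held 98, C1qb 550 and Marco 0. In Cre negative library 2 these genes held 25149, 3108, 15873 and 8893 reads. The libraries are called macrophages after their sort, and these shares do not show that macrophages gave most of the RNA.

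Promoters of members that the results return to are shown first, as reference sequence from RefSeq on GRCm38.p6. Each window runs from 250 bases before to 50 bases after an annotated start, 5′ to 3′ on the gene's strand. Capitals mark ACGTG or GCGTG read on either strand, the core letters that HIF factors recognise. Hk1 has 2 windows, chr10:62379859-62380158 and chr10:62340372-62340671, and Hk2 has 1 at chr6:82774405-82774704, all on the minus strand. Ldha has 2 windows on the plus strand, and the first, at chr7:46845554-46845853, is shown.
Hk1 window 1: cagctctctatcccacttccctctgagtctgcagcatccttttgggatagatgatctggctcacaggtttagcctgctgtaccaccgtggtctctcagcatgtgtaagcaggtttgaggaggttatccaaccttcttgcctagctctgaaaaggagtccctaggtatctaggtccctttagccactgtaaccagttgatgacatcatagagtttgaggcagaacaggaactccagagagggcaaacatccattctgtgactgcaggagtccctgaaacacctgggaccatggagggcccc
Hk1 window 2: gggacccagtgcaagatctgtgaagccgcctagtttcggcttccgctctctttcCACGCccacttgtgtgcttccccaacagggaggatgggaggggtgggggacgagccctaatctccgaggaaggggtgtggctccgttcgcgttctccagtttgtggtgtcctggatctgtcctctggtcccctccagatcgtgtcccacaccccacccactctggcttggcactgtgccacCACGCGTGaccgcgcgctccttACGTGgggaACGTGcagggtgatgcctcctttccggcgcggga
Hk2: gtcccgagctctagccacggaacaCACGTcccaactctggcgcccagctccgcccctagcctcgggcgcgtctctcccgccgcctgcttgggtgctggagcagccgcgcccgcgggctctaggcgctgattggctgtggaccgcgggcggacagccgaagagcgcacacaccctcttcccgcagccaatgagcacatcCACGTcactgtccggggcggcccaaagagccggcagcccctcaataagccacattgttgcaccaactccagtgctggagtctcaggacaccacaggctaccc
Ldha window 1: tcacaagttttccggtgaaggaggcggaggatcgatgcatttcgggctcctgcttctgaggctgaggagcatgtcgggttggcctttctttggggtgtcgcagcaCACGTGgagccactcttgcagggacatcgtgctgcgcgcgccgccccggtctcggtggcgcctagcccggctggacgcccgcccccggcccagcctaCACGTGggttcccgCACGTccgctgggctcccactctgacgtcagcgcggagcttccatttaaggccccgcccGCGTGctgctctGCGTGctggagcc
The upstream Hk1 window holds 0 matches and the downstream one 5. Hk2 has 2 matches, the second Ldha window has 2, and the first has 7, of which overlapping pairs form the 2 copies of CACGTG. All 10 genes matched the promoter table, with 17 windows, and 13 of these windows (76.5%) hold a match. Windows 2 and 3 of Aldoa overlap and count the same match, and windows 2 and 3 of Eno1 overlap and count the same 2 matches. Of the 10 genes 9 hold a match, Gpi1 being the gene without one, beside 46.7% of all 27025 genes with windows. Among all 32851 promoter windows, 43.8% hold one, and among the 18337 windows at least as rich in G and C as the poorest window of the 10 genes 58.7% do. CACGTG is present in 1 of the 17 windows and in 7.15% of all windows. A match describes these letters and is no evidence of binding.

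In HSCs the glycolytic genes took nearly the same share of RNA in both genotypes, and none of them passed the test. The 10 genes together took 0.785% ± 0.0393 of reads (SD, n = 3) in the libraries labelled Cre negative and 0.820% ± 0.0121 (SD, n = 3) in those labelled Cre positive, with ranges that overlap. In edgeR's quasi-likelihood test, adjusted by Benjamini-Hochberg over all genes, 0 of 10 members and 0 of 13962 genes (0%) passed an adjusted p of 0.05, the smallest adjusted p of any gene being 0.689. At an unadjusted p under 0.05 there was 1 of 10 members, Hk1, with the lower level in the libraries labelled Cre positive. All genes tested gave 892 (6.39%), of which 554 were lower (3.97%) and 338 higher (2.42%), and DESeq2 called 133 genes and 0 members. Fitted log2 fold changes were above 0 for 6 members and below 0 for 4, with a median of 0.03 against -0.00 over all genes tested, and Pfkl, at -0.02, lay above 0 under 6 of the alternative fits that keep all libraries.

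Hk1, the hexokinase bound to mitochondria in most tissues, was the member with the smallest p. Hk1 stood at 181, 195 and 216 CPM in the 3 HSC libraries labelled Cre negative and had 148, 144 and 105 CPM in the 3 labelled Cre positive. Each of the latter lay below each of the former, and the log2 fold change was -0.57 ± 0.22 (SE), with a 95% interval of -1.08 to -0.06 (edgeR, unadjusted p = 0.0319, adjusted p = 0.770). Hk1 was the only member of the 10 whose HSC groups did not overlap, where 15.7% of all genes were separated, 9.33% downwards and 6.37% upwards. Its unadjusted p lay above 0.05 without Cre negative library 2 or 3 or Cre positive library 3, with library totals as the scale and with a replicate block, up to 0.0941.

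Markers of another cell type are given beside Hk1. The 14 endothelial markers, none at 0 in any HSC library, took 1.25, 0.881 and 0.628% of reads in the libraries labelled Cre negative and 0.697, 0.613 and 0.831% in the others, ranges that overlap. Of the 14 markers 3 (Pecam1, Tek and Oit3, named after their values were seen) were lower in every Cre positive library than in every control and 0 higher, whereas Stab1, Stab2 and Cdh5, also named after their values were seen, were highest in Cre positive library 3, which held the lowest Hk1 value. Their part in the Hk1 level was not tested.

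Hk2, the second hexokinase of the list and a classic target of HIF-1, pointed the other way. Its levels were 10.6, 13.4 and 22.3 CPM against 17.5, 24.1 and 46.4 CPM, and the groups overlapped since the highest control lay above the lowest Cre positive library. The log2 fold change was 0.93 ± 0.57 (SE), with a 95% interval of -0.40 to 2.25 (edgeR, unadjusted p = 0.146, adjusted p = 0.877). The Cre positive library 3 held both the lowest Hk1 and the highest Hk2 value of the 6, and without it the Hk2 log2 fold change was 0.43.

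The next enzymes form the upper part of the chain up to its split into triose phosphates. Gpi1, which converts glucose 6-phosphate to fructose 6-phosphate, was at 539.9, 528 and 555 CPM against 586, 499.8 and 592 CPM, for a log2 difference of 0.05 ± 0.16 (SE). Pfkl, the liver-type phosphofructokinase, was at 428, 425 and 619 CPM against 503, 483 and 469 CPM. Cre negative library 3 held the highest Pfkl value, and the other 5 lay close together. Aldoa, the aldolase that splits fructose 1,6-bisphosphate, was at 879.9, 897 and 1004 CPM against 996, 1037 and 1441 CPM, with a log2 fold change of 0.32 ± 0.19 (SE) and an interval of -0.13 to 0.77. Cre negative library 3 lay above the lowest Cre positive library, so the Aldoa groups overlapped, and Cre positive library 3 again held the highest value.

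The lower part of the chain, which yields ATP and NADH, was as level. Gapdh, which makes the first NADH and is often used as a reference gene, was at 1134, 1008 and 1054 CPM against 1096, 988 and 1384 CPM. Pgk1, the first ATP-forming kinase of the chain, was at 119, 89.0 and 78.1 CPM against 113, 109.7 and 124 CPM. The 3 Cre positive Pgk1 values lay within a narrower range than the controls, whose highest value was above 2 of them. Eno1, the enolase that forms phosphoenolpyruvate, was at 1344, 1254 and 1239.6 CPM against 1261, 1464 and 1156 CPM. Pkm, the pyruvate kinase of most tissues, was at 1817, 1772 and 1827 CPM against 1819, 1519 and 1581 CPM, and Ldha, the lactate dehydrogenase subunit that favours lactate formation, at 1779, 1468 and 1499.8 CPM against 1453, 1605 and 1452 CPM. All 5 overlapped, with log2 fold changes from -0.14 for Pkm to 0.28 for Pgk1. The intervals bound what these libraries could show: for Pkm -0.49 to 0.21, for Ldha -0.44 to 0.29, for Eno1 -0.36 to 0.39 and for Gapdh -0.30 to 0.53.

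**Figure D1:**
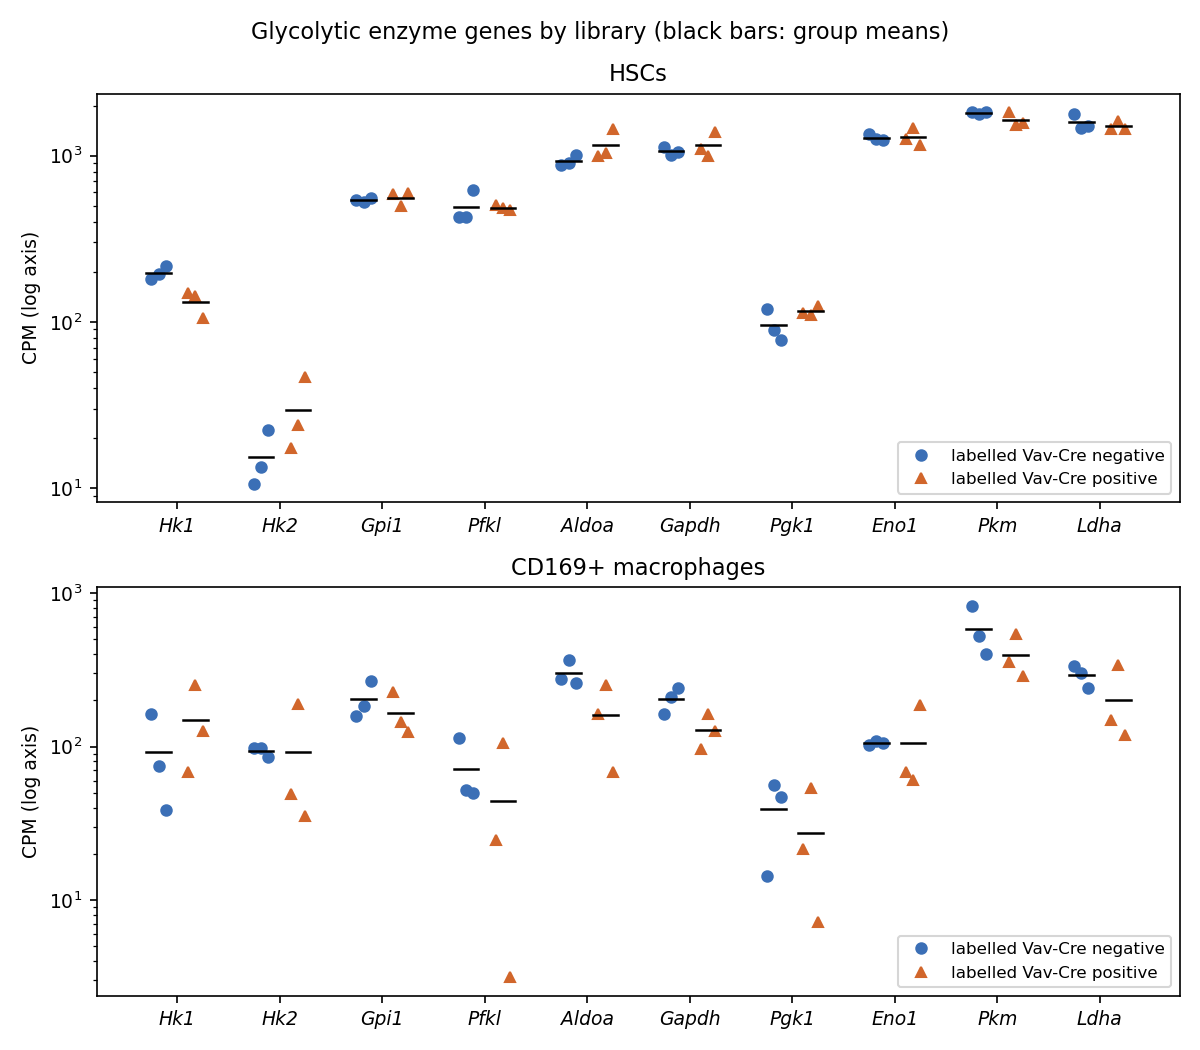
Level of each of the 10 glycolytic enzyme genes in every library, in CPM on a log axis, for HSCs (top) and CD169+ macrophages (bottom). Circles are libraries labelled Vav-Cre negative, triangles those labelled Vav-Cre positive and black bars the group means (n = 3). In HSCs the groups are separated at Hk1 alone, and in macrophages at Aldoa alone, where single libraries of 1 genotype lie further apart.

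In the macrophage sort most members had lower fitted levels in the Cre positive libraries, but none passed the test and the libraries of 1 genotype lay far apart. The 10 genes took 0.184% ± 0.0379 of reads (SD, n = 3) without Cre and 0.154% ± 0.0541 (SD, n = 3) with it. Of these Cre positive libraries, 1 and 3 took 0.131% and 0.116% and library 2 took 0.216%, within the range of the controls. Tested in the same way with edgeR, 0 of 10 members and 0 of 17806 genes (0%) passed an adjusted p of 0.05, the smallest being 0.225. At an unadjusted p under 0.05 there was 1 member, Aldoa, lower with Cre. All genes tested gave 965 (5.42%), of which 874 were lower (4.91%) and 91 higher (0.511%), and DESeq2 called 61 genes and 0 members. Log2 fold changes were below 0 for 9 members and above 0 for Hk1, although Hk2 and Eno1 lay above 0 with DESeq2 size factors, upper-quartile scaling, library totals, the stricter filter or thinning to equal depth.

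The members' median log2 fold change in macrophages was -0.52, beside -0.16 over all genes tested, of which 43.9% were above 0. DESeq2 size factors moved the median of all genes to 0.04 and that of the members to -0.34. Cre positive library 2 held the highest share of the members in its group, so leaving it out lowers their Cre positive mean. Without it the median was -1.03 beside -0.63 over all genes, and 4 members, all lower, had an unadjusted p under 0.05 (edgeR). All 23674 genes tested there gave 6.21% in either direction and 5.39% lower, and 1 gene and 0 members passed the adjusted test. Leaving out any other single library gave 0 or 1 members with an unadjusted p under 0.05 (edgeR). Without Cre positive library 3 the median was -0.27 beside -0.43. Depth was lower in the Cre positive libraries, and with every library thinned to the shallowest the median was -0.39 beside -0.01. The 14 endothelial markers took 1.77, 0.873 and 0.876% of reads in Cre negative and 1.505, 1.82 and 1.45% in Cre positive macrophage libraries, none of them at 0, and their part in the members' levels was not tested.

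Aldoa, the aldolase, was the macrophage member with the smallest p. Its levels were 277, 368 and 258 CPM in Cre negative and 163, 253 and 67.9 CPM in Cre positive libraries. The groups did not overlap, where 14.1% of all genes were separated, 11.8% downwards and 2.27% upwards, but the highest Cre positive value came within a few CPM of the lowest control. The log2 fold change was -0.90 ± 0.43 (SE), with a 95% interval of -1.80 to -0.00 (edgeR, unadjusted p = 0.0497, adjusted p = 0.917), and the p ranged from 0.00714 to 0.14 over the alternatives.

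At the entry of the chain the hexokinases varied within genotypes more than between them. Hk1 was at 164, 75.1 and 38.4 CPM against 68.4, 252 and 126 CPM, spanning more than the whole difference of means within either group. Hk2 was at 98.0, 98.0 and 85.9 CPM against 49.3, 189.8 and 35.3 CPM, with 3 close controls between the extremes of the Cre positive libraries. Gpi1, the isomerase, was at 157, 185 and 269 CPM against 227, 145 and 124 CPM. Pfkl was at 113, 52.1 and 49.6 CPM against 24.5, 106 and 3.13 CPM, and the lowest of these rests on 18 reads. Cre positive library 2 held the highest Hk1 and Hk2 values of all 6 libraries and the highest Pfkl value of its group.

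Further down the chain, Gapdh was at 164, 209 and 240.3 CPM against 96.8, 164 and 127 CPM, for a log2 difference of -0.66 ± 0.38 (SE) with an interval of -1.47 to 0.15. The lowest control and the highest Cre positive library had nearly the same Gapdh level. Pgk1 was at 14.2, 56.5 and 47.1 CPM against 21.6, 53.4 and 7.13 CPM and Eno1 at 103, 108 and 106 CPM against 68.0, 60.2 and 187 CPM. For Eno1 the controls agreed closely, and the Cre positive libraries lay on both sides of them. Pkm was at 832, 523 and 402 CPM against 354, 541 and 289 CPM, a log2 fold change of -0.57 with an interval of -1.30 to 0.16. Ldha was at 334, 302 and 241 CPM against 149, 341 and 118 CPM, a log2 fold change of -0.53 with an interval of -1.38 to 0.32. For both, Cre positive library 2 lay within or above the control range, and libraries 1 and 3 lay below all controls.

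**Figure D2:**
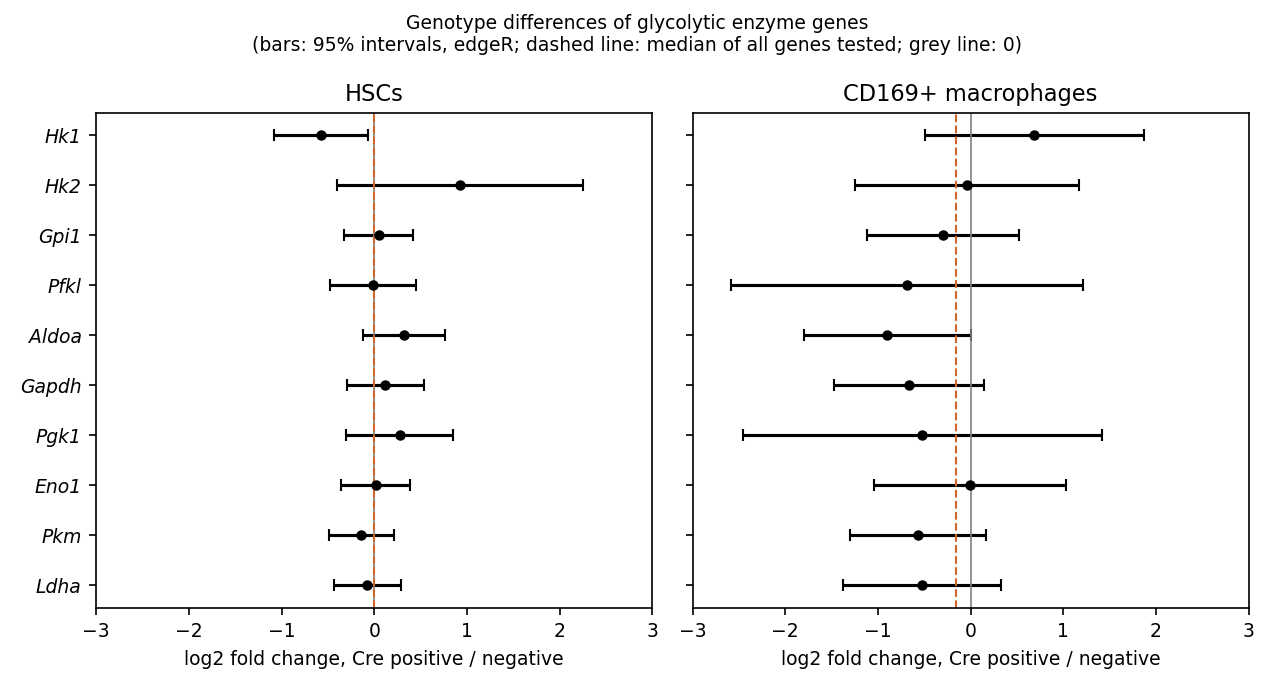
Log2 fold change of each glycolytic enzyme gene, Cre positive over Cre negative, from edgeR's fit, with 95% intervals, in HSCs (left) and CD169+ macrophages (right). The dashed line is the median over all genes tested and the grey line is 0; 9 of 10 HSC intervals and 9 of 10 macrophage intervals span 0, those of Hk1 in HSCs and Aldoa in macrophages being the ones that do not.

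The genotype effects of the sorts were compared directly, as an interaction over the 32210 identifiers in both tables. Of 20128 genes tested, 14 passed an adjusted p of 0.05 (0.0696%), and 0 of 10 members did. The Aldoa effect in macrophages was lower than that in HSCs by a log2 difference of -1.23 ± 0.49 (SE), with an interval of -2.24 to -0.22 (edgeR, unadjusted p = 0.0191, adjusted p = 0.529). For Gapdh the difference was -0.79 (edgeR, unadjusted p = 0.0489, adjusted p = 0.577), and 8.62% of all genes had an unadjusted p under 0.05. Hk1, with opposite fitted effects in the sorts, differed by 1.21, with an interval of -0.24 to 2.67 (edgeR, adjusted p = 0.679).

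Within a sort, levels of different genes were set side by side per kilobase of the principal transcript. In HSCs the mean over the 6 libraries was highest for Ldha, at 874 CPM per kb, followed by Gapdh at 782, Pkm at 708, Aldoa at 689.9 and Eno1 at 635 CPM per kb. Neighbours among these 5 exchanged places between libraries, whereas the ranges of Ldha (822 to 1007 CPM per kb) and Eno1 (570.1 to 722) did not overlap. Gpi1, at 191 CPM per kb, was the sixth and Pfkl, at 131, the seventh in every HSC library. Pgk1 at 57.8 and Hk1 at 42.8 CPM per kb exchanged places, and Hk2, at 4.06 CPM per kb, was the last in all 6. Among these 10 genes, Hk1, Hk2, Gpi1 and Pfkl were below Aldoa, Gapdh, Eno1, Pkm and Ldha per kb in every HSC library. Pgk1, also of the lower part of the chain, was below Gpi1 and Pfkl in every HSC library.

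In macrophages Pkm led with 202 CPM per kb, before Aldoa at 153, Ldha at 140.1 and Gapdh at 117 CPM per kb. Gpi1 was at 64.0 and Eno1 at 52.0 CPM per kb. The lowest means were those of Hk1 (31.3), Pgk1 (18.3), Hk2 (16.8) and Pfkl (15.6 CPM per kb). The means pool genotypes, and the leading order was not fixed either, since Aldoa lay above Pkm in Cre negative libraries 2 and 3 and Ldha, at 115, above Aldoa, at 107 CPM per kb, in the mean of the Cre positive libraries. The ranges of the lowest genes over libraries overlapped, from 0.840 to 30.4 CPM per kb for Pfkl to 9.97 to 65.4 for Hk1, so that their order is not fixed. With the union of exons as the length, an alternative chosen after seeing the data, Gapdh moved from the second to the fourth place in HSCs and Hk1 from the seventh to the ninth in macrophages.

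The steadiness of these genes between replicate libraries differed by sort, as did that of all genes tested. Depth differed too, at 51982064 to 77463770 counted reads in HSC and 2602934 to 24658205 in macrophage libraries. The SD of a gene with few reads includes counting error, so SDs of the sorts are not directly comparable. In HSCs the within-group SD of log2(CPM + 1) was 0.0979 for Pkm, 0.0999 for Gpi1, 0.122 for Ldha and 0.130 for Eno1. Of the 10020 genes tested at 10 CPM or more, 0.699% to 1.79% had a smaller SD than these 4. Gapdh, at 0.186, had 5.64% of those genes below it. The least steady member was Hk2, at 0.610, with 63.8% below. In macrophages Gapdh had the smallest SD, 0.332, with 8.25% of 9697 genes at 10 CPM or more below and 24.4% of those at 100 CPM or more, and Pfkl the largest, 1.73, with 82.1% below. The median SD was 0.490 over HSC genes at 10 CPM or more and 0.331 over those at 100 CPM or more. In macrophages the same medians were 0.873 and 0.472. Hk1, Hk2, Pfkl and Pgk1 lay above the macrophage median of 0.873, and the other members below it. Among HSC genes at 100 CPM or more the share with a smaller SD was 13.8% for Gapdh, 2.03% to 5.03% for Pkm, Gpi1, Ldha and Eno1, and 20.1% to 24.1% for Hk1, Aldoa, Pfkl and Pgk1.

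**Figure D3:**
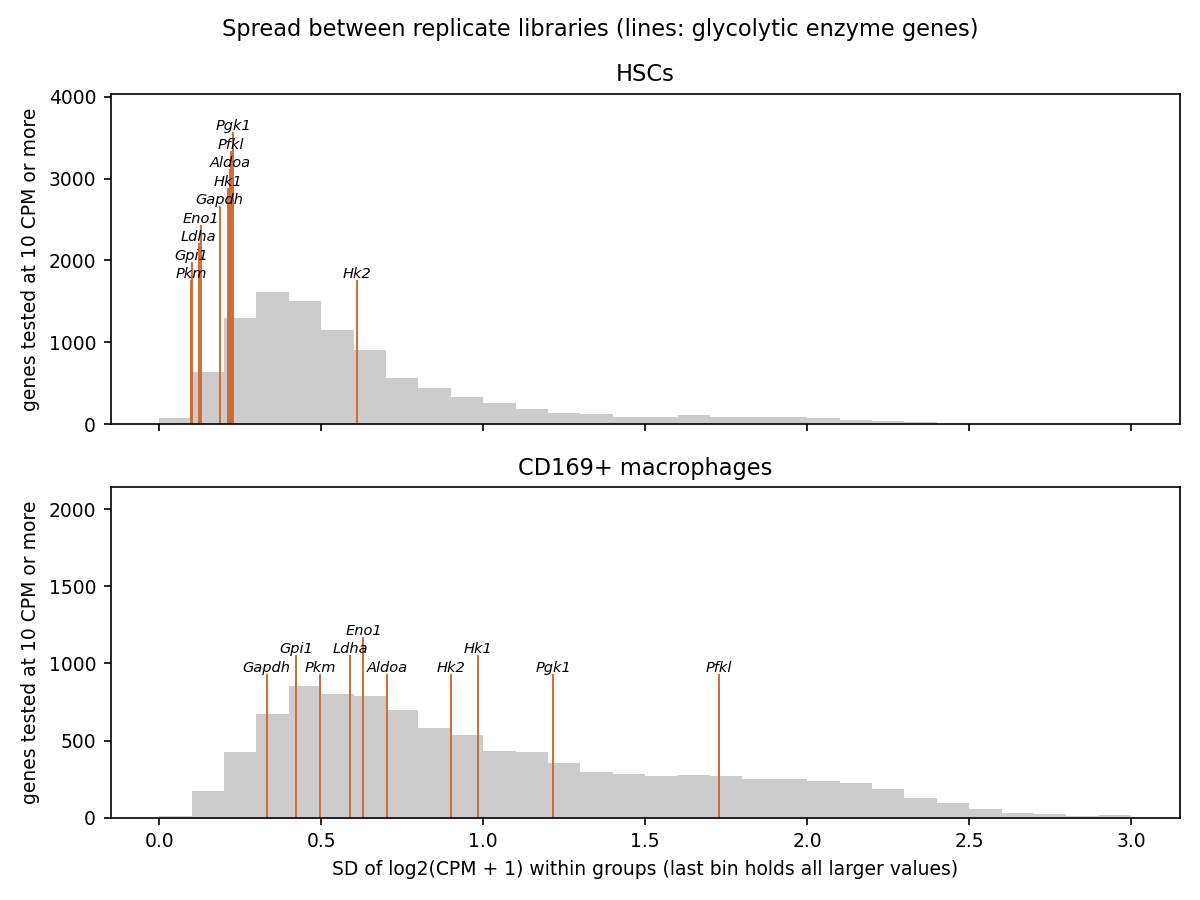
Within-group SD of log2(CPM + 1) over replicate libraries for all genes tested at 10 CPM or more (grey, number of genes per bin) and for the glycolytic enzyme genes (lines with names), in HSCs (top) and CD169+ macrophages (bottom). Line heights carry no value. The HSC members other than Hk2 have SDs from 0.0979 to 0.228, below the HSC median of 0.490. The macrophage members spread from 0.332 to 1.73, on both sides of the macrophage median of 0.873.

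Which isoenzyme led each step in the bulk RNA was read from the share of a gene in the summed level per kb of its family. All HSC libraries had the same leading isoenzymes: Pfkl for phosphofructokinase, Pgam1 for phosphoglycerate mutase, Eno1 for enolase, Pkm for pyruvate kinase and Ldha for lactate dehydrogenase. Since these libraries also held transcripts of other cell types, the shares describe the RNA mix. Gene counts do not resolve the M1 and M2 splice forms of Pkm. Over 5 families in 2 sorts, 10 exact two-sided permutation tests were run, none of which can go below p = 0.1 with 3 against 3 libraries, and every adjusted p was at least 0.429.

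Hk3, the hexokinase of myeloid cells, varied between HSC libraries of 1 genotype. It was at 40.4, 36.1 and 38.4 CPM in the libraries labelled Cre negative against 31.9, 54.5 and 13.1 CPM in those labelled Cre positive, highest in Cre positive library 2 and lowest in library 3. The neutrophil markers took 0.118, 0.156 and 0.178% of reads in the Cre negative and 0.231, 0.399 and 0.0925% in the Cre positive HSC libraries, with the same libraries highest and lowest. Of these markers Mpo, Elane and Ctsg were highest in Cre positive library 1, and Elane and Ctsg were at 0 in some library. The 14 macrophage markers took 0.209, 0.191 and 0.197% against 0.255, 0.116 and 0.268%, lowest in Cre positive library 2 and highest in library 3. The part of either list in Hk3 was not tested. Hkdc1, a hexokinase domain protein, had reads in 1 HSC library, Cre negative library 3, at 6.98 CPM.

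Pfkl made up 80.6% ± 4.86 of HSC phosphofructokinase (SD, n = 3) in Cre negative and 88.3% ± 3.22 (SD, n = 3) in Cre positive libraries (exact permutation test, p = 0.1, adjusted p = 0.429). No library overlapped, although the groups did with the union of exons as the length (exact permutation test, p = 0.2), and the rest was shared by Pfkm, the muscle form, at 29.2, 17.8 and 106 CPM against 21.6, 31.0 and 30.0 CPM, and Pfkp, the platelet form, at 61.4, 60.6 and 73.8 CPM against 61.9, 32.9 and 2.52 CPM. The high Pfkm value of Cre negative library 3 and the low Pfkp value of Cre positive library 3 stand apart. Aldoc, the brain aldolase, was at 7.18, 4.39 and 27.0 CPM against 5.88, 19.9 and 12.9 CPM.

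The remaining HSC families were nearly single-gene. Pkm held 99.4% or more of pyruvate kinase in all 6 libraries, and Pklr, the liver and red cell form, was at 13.4, 11.1 and 4.21 CPM against 9.49, 2.10 and 0.709 CPM. The 12 hepatoblast markers, none of them at 0 in any HSC library, took 0.251, 0.381 and 0.192% of reads in the Cre negative and 0.307, 0.245 and 0.218% in the Cre positive libraries, ranges that overlap, and their part in Pklr was not tested. Eno1 held 97.0% or more of enolase, beside Eno3, the muscle form, at 2.74, 2.32 and 10.3 CPM against 0.112, 35.0 and 21.3 CPM and Eno2, the neuronal form, at 0, 4.07 and 0.569 CPM against 7.09, 0 and 0 CPM. Pgam1 held 98.5% ± 0.650 of its family (SD, n = 3) against 99.7% ± 0.312 (SD, n = 3), without overlap, although Pgam2, the muscle form, was at 0 to 1.12 CPM. Ldha held 85.5% ± 2.16 of lactate dehydrogenase against 85.3% ± 3.47 (SD, n = 3 each). Ldhb, the subunit that favours lactate use, made up the rest at 221, 153 and 222 CPM against 241, 197 and 139 CPM.

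**Figure D4:**
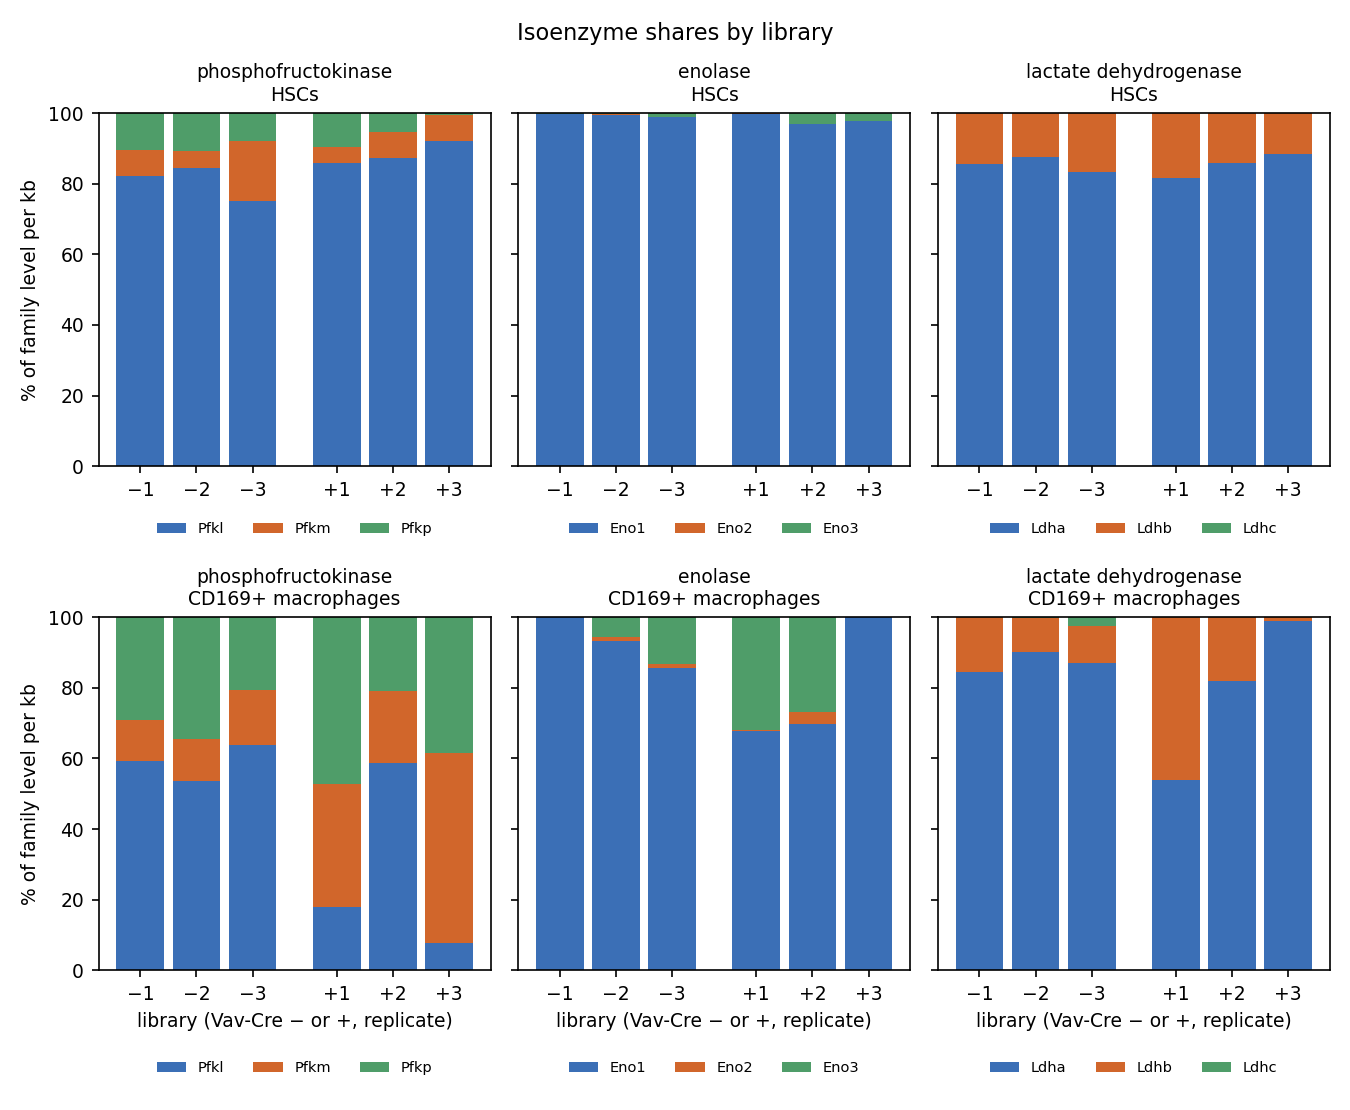
Share of each isoenzyme gene in the summed level per kb of its family (percent), in every HSC library (top) and CD169+ macrophage library (bottom); bars are libraries, with the Vav-Cre label and replicate number below. HSC bars keep the same leading gene throughout, and in macrophages Pfkl leads in 4 of 6 libraries and Eno1 and Ldha in all 6, by margins that vary between libraries.

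In macrophages Hk3 differed widely between libraries of the same genotype. Hk3 was at 5.39, 120.5 and 71.4 CPM against 4.68, 4.83 and 42.1 CPM (edgeR, log2 fold change -1.93 ± 1.06 (SE), adjusted p = 1.000). The 14 macrophage markers took 0.196, 0.537 and 0.468% of reads in Cre negative and 0.238, 0.253 and 0.388% in Cre positive libraries, with the 3 highest shares in the 3 libraries that were highest in Hk3. Of these markers only Marco was at 0 in any library, and their part in the Hk3 level was not tested.

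Of macrophage phosphofructokinase Pfkl held 59.4, 53.5 and 63.8% without Cre and 17.9, 58.6 and 7.85% with Cre, where libraries 1 and 3 lay far below library 2 (exact permutation test, p = 0.2, adjusted p = 0.429). In those 2 libraries Pfkp, at 71.6 and 17.1 CPM, and Pfkm, at 36.7 and 16.5 CPM, made up most of the family. The Pfkl counts behind these shares were 68 and 18 reads. The share of Ldha in its family was 84.6, 90.1 and 87.0% against 53.9, 82.0 and 98.8%, lowest in Cre positive library 1, where Ldhb was at 93.9 CPM. Eno1 held 99.9, 93.3 and 85.4% of enolase without Cre and 67.7, 69.8 and 99.9% with Cre, and Eno3 made up most of the rest in Cre positive libraries 1 and 2. Eno3 was at 0.0579, 4.996 and 12.8 CPM against 24.8, 17.8 and 0.174 CPM and Eno2 at 0, 1.73 and 2.12 CPM against 0.360, 4.09 and 0 CPM. Hkdc1 was at 4.98, 1.17 and 6.32 CPM against 18.0, 4.46 and 5.74 CPM, highest in Cre positive library 1.

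The largest difference of a macrophage family share was that of phosphoglycerate mutase, at 33.7% of Pgam1 in the mean with Cre against 69.7% without (exact permutation test, p = 0.3, adjusted p = 0.429). Pgam1 held 68.4, 90.3 and 50.3% in Cre negative and 0, 87.7 and 13.4% in Cre positive libraries, and Pgam2 led in Cre positive libraries 1 and 3. Pgam1 was at 31.6, 8.26 and 12.3 CPM against 0, 27.9 and 16.2 CPM and Pgam2 at 6.89, 0.420 and 5.76 CPM against 1.0795, 1.86 and 49.6 CPM. The groups overlapped, and the share in Cre positive library 1 rests on 3 reads of Pgam2 and 0 of Pgam1. Other macrophage isoenzymes stood at low levels, with Pklr at 30.6, 4.86 and 3.60 CPM against 5.76, 4.28 and 8.18 CPM, Ldhc at 0, 0.654 and 5.72 CPM against 0 in all Cre positive libraries, and Aldoc at 0.0579, 6.82 and 2.77 CPM against 0 in all Cre positive libraries.

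Genes of gluconeogenesis, the reverse route that liver cells use to make glucose, were listed beside the enzymes. Pck1, an enzyme of that route, was at 161, 2.66 and 0.553 CPM against 0, 0 and 2.44 CPM in macrophages. There 7 of 7 tested genes of the gluconeogenesis list had fitted log2 fold changes below 0. Their median was -2.02 beside -0.16 over all genes, of which 43.9% were above 0. Without Cre negative library 1 this median was -0.995 and 5 of 6 tested genes were below 0. In HSCs 3 of 5 tested genes were below 0, and none of the list passed the adjusted test in edgeR in either sort. The hepatoblast markers took 0.410, 0.0502 and 0.0533% of reads in Cre negative and 0.0857, 0.0486 and 0.0743% in Cre positive macrophage libraries. Their sum was highest in Cre negative library 1, which also held the highest Pck1 value. Alb and Trf gave 29469 and 21652 reads of that sum, and not every marker peaked there. Afp held 349 reads in that library against 2522 and 2640 in Cre negative libraries 2 and 3, and Krt18, Dlk1 and Apoa2 were also not highest in it. Fgb, Serpina1a, Hnf4a and Krt18 were each at 0 in some macrophage library, and the part of these transcripts in the gluconeogenesis list was not tested.

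Other glycolytic steps outside the 10 genes gave 0 of 12 tested genes past the adjusted threshold in HSCs and 0 of 13 in macrophages. In macrophages the median of this list lay on the other side of 0 from that of the members. There 9 of its tested genes had log2 fold changes above 0 and 4 below, with a median of 0.40 beside -0.16 over all genes. Leaving out 1 library gave medians from 0.15, without Cre positive library 2, to 0.60, without Cre negative library 1. Directions were less settled, with 7 above 0 and 6 below without Cre negative library 3. Some of these genes rest on few reads, such as Eno2 with 1, 22 and 0 in the Cre positive libraries. In HSCs 5 were above 0 and 7 below, with a median of -0.13 beside -0.00. Tpi1, the triose phosphate isomerase, was at 666, 637 and 731 CPM against 744, 957 and 979 CPM in HSCs. All 3 libraries labelled Cre positive lay above the controls, with a log2 fold change of 0.40 ± 0.18 (SE) (edgeR, unadjusted p = 0.0547, adjusted p = 0.787). Bpgm, which makes 2,3-bisphosphoglycerate from the same pool of intermediates, was at 42.4, 46.0 and 49.2 CPM against 62.1, 58.7 and 87.8 CPM, and also did not overlap. Pgam1 lay the other way, at 103, 82.5 and 90.8 CPM against 75.7, 70.0 and 60.0 CPM. In macrophages Tpi1 overlapped, at 57.7, 104 and 37.7 CPM against 111, 60.8 and 16.9 CPM.

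Among the genes that feed or drain the chain, none of 9 tested transporters in HSCs and none of 13 in macrophages passed. Bsg, the partner that brings lactate transporters to the membrane, was at 391, 454 and 401 CPM in Cre negative and 266, 274 and 309 CPM in Cre positive macrophages, without overlap (edgeR, log2 fold change -0.55 ± 0.31 (SE), adjusted p = 1.000). Slc2a8, a glucose transporter of inner membranes, had reads in all 3 Cre negative macrophage libraries, at 8.11, 6.02 and 10.6 CPM, and was at 0.360, 0 and 0 CPM in the shallower Cre positive ones. Of 13 regulators of flux, 0 passed in either sort. Txnip, which restrains glucose uptake, was at 480.3, 393 and 358 CPM against 312, 243 and 314 CPM in HSCs, without overlap (edgeR, log2 fold change -0.50 ± 0.20 (SE), adjusted p = 0.775). Pfkfb3, whose product makes the activator of phosphofructokinase, was at 46.2, 47.4 and 57.4 CPM against 141, 90.5 and 65.3 CPM in macrophages, also without overlap (edgeR, adjusted p = 1.000).

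Pyruvate enters mitochondria through a carrier and the pyruvate dehydrogenase complex, and 0 of 7 genes of this list passed in either sort. Pdha1, the catalytic subunit of that complex, was at 127, 125 and 136 CPM against 77.7, 90.4 and 31.2 CPM in HSCs and at 90.7, 101 and 64.2 CPM against 47.1, 60.2 and 5.22 CPM in macrophages. In both sorts the Cre positive libraries lay below the controls (edgeR, log2 fold changes -0.96 ± 0.39 (SE) and -1.19 ± 0.72 (SE), adjusted p = 0.775 and 1.000). The same separation downwards held for 9.33% of all HSC genes and 11.8% of all macrophage genes tested. The pentose phosphate pathway, which branches off at glucose 6-phosphate, also had 0 of 8 genes past the threshold in each sort. Tkt, its transketolase, was at 188, 196 and 151 CPM against 100.4, 65.6 and 91.0 CPM in macrophages, and Pgd, which forms NADPH, at 51.9, 126 and 107 CPM against 45.0, 40.0 and 11.3 CPM. Neither overlapped (edgeR, log2 fold changes -1.06 ± 0.41 (SE) and -1.57 ± 0.64 (SE), adjusted p = 0.773 for both). Rpia, the ribose phosphate isomerase, was at 0.914, 1.53 and 0.179 CPM against 10.2, 11.2 and 10.8 CPM in HSCs (edgeR, adjusted p = 0.775).

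The transcription factors that act on glycolytic promoters were listed as well, and 0 of 6 tested in HSCs and 0 of 7 in macrophages passed. Hif1a, the oxygen-sensitive subunit of HIF-1, was at 135, 122 and 129 CPM against 55.1, 46.8 and 52.8 CPM in HSCs. The values of libraries labelled Cre positive lay far below the controls, with a log2 fold change of -1.32 ± 0.23 (SE) and an interval of -1.86 to -0.78 (edgeR, unadjusted p = 0.000484, adjusted p = 0.689). For the 9 members with the HIF core letters in a promoter window, the HSC log2 fold changes were 0.93 for Hk2, 0.32 for Aldoa, 0.28 for Pgk1, 0.12 for Gapdh and 0.02 for Eno1. They were -0.02 for Pfkl, -0.07 for Ldha, -0.14 for Pkm and -0.57 for Hk1. These letters are held by 46.7% of all genes, and the part of Hif1a in the members' levels was not tested. Myc was at 347, 267 and 281 CPM against 194, 195 and 207 CPM, for a log2 difference of -0.59 ± 0.19 (SE) (edgeR, adjusted p = 0.689). In macrophages Hif1a was at 109, 115 and 146 CPM against 127, 144 and 92.7 CPM, and Epas1, the HIF-2 subunit, at 441, 339.7 and 336 CPM against 621, 545 and 565 CPM, the latter without overlap (edgeR, log2 fold change 0.63 ± 0.29 (SE), adjusted p = 0.8995).

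Copies and antisense genes limit how these counts can be read, since the cDNA does not mark strand and the multimapping settings of the counting are unknown here. Eno1b, a near copy of Eno1, was at 16.8 to 25.6 CPM in HSC libraries and at 0 to 1.49 CPM in macrophages. The antisense gene Hk1os, which cannot be told apart from Hk1 without strand, was at 0.692 to 8.12 CPM in HSC libraries and at 0 to 7.995 CPM in macrophages. Processed pseudogenes of Gapdh, Ldha, Pgk1 and Aldoa that have rows in the macrophage table reached at most 4.68 CPM there.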

How the data were processed

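Raw read counts per gene in 12 libraries were deposited by the authors, 1 table per sort, not normalized. SMART-Seq v4 cDNA, which does not mark strand, was made in 1 batch per sort, with 1 ng of RNA and 11 cycles for macrophages, per the labels' protocols. The submitters' processing notes name STAR 2.7.6a and, from Subread 2.0.1, featureCounts for the HSC table, with GRCm38 (mm10) as the build. For macrophages they name mm10 only. Not given in the sources used here are the aligner and counter of that table and the strand and multimapping settings of both. Names came from GENCODE M21, and 50 and 4855 identifiers were unnamed. Of the per-sample columns, 0 had no sample.

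Each table was filtered with filterByExpr, scaled by TMM and tested with edgeR 4.0.16 (robust glmQLFit, glmQLFTest), Cre positive minus negative, with Benjamini-Hochberg adjustment over all genes and 0.05 as the threshold. Standard errors come from the fold change and its F statistic. CPM uses TMM-scaled totals, shares of reads use all counted reads, and means carry the SD over 3 libraries. The interaction fit took all 12 libraries. Isoenzyme shares use CPM per kb of the principal transcript and exact permutation tests (SciPy 1.17.1), over 5 families; some families and genes of the lists first set are not reported here. Scripts were tested on simulated data. Chi-square per degree of freedom between libraries of a group was 51.2 to 831, so none was merged. Alternatives were DESeq2 1.42.0, other scalings and filters, thinning, a replicate block and leaving out each library.

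The 10 genes and the other lists were chosen with earlier results of these data known. Named genes are all members, isoenzymes of the families first set whose mean reached 1 CPM in any group, Jag1, Hif1a and, in each other list, those past the threshold or else up to 3 with the smallest p per sort. Tpi1, Pgam1, Pgd, Pdha1 and Hif1a in macrophages are given as counterparts. Genes named for a small p are more likely to have groups without overlap. Over all genes tested, 15.7% had such groups in HSCs and 14.1% in macrophages. In HSCs 3 counts are 0.0387 to 0.0577 CPM, in Cre negative macrophages 0.122 to 0.174 and in Cre positive ones 0.559 to 1.15.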

Additional observations from a re-analysis of the deposited data

How the results depend on the processing

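Under every alternative 0 of the 10 glycolytic genes were called in HSCs, in macrophages and in the difference of genotype effects. Of 420 fold changes of members recomputed under alternatives, 385 kept their direction and 35 turned, and the cause was not tested. Pfkl in HSCs turned to 0.0083 with DESeq2 size factors, 0.0036 with upper-quartile scaling, 0.023 with library totals, 0.0083 with DESeq2's Wald test and 0.019 with at least 10 CPM in 3 libraries. In macrophages the same 5 settings gave 0.13, 0.098, 0.14, 0.13 and 0.079 for Hk2 and 0.22, 0.14, 0.21, 0.22 and 0.14 for Eno1, thinning to the shallowest library gave 0.10 and 0.21, and leaving out mitochondrial ribosomal RNA gave 0.0064 for Eno1. The difference of effects for Eno1 was 0.073 with library totals. Leaving out 1 library at a time gave HSC ranges of -0.12 to 0.18 for Pfkl, -0.034 to 0.22 for Gapdh, -0.085 to 0.088 for Eno1 and -0.13 to 0.013 for Ldha, macrophage ranges of -1.18 to 0.28 for Hk2 and -0.77 to 0.25 for Eno1, and -0.74 to 0.25 for the difference of effects of Eno1. Leading isoenzyme shares moved, in percentage points of Cre positive minus negative, from -1.82 to 1.63 for Ldha in HSCs, and in macrophages from -0.682 to 0.501 for Pkm and -19.3 to 3.16 for Ldha. Over all genes, calls in macrophages went from 0 to 61 with DESeq2, 21 without a filter, 13 with the replicate block and 1 to 34 without 1 library, most without Cre positive library 3. In HSCs they went from 0 to 133 with DESeq2, and for the difference of effects from 14 to 96 with the block, 8 with library totals and 6 to 210 without 1 library, most without macrophage Cre positive library 2. Same-numbered libraries did not pair: their deviations correlated at -0.0334 to 0.0115 in HSCs and -0.0158 to 0.0268 in macrophages. With the replicate block, Pfkl in HSCs was 0.0055, and 0 members were called. Length by the union of exons, chosen after seeing the data, left each isoenzyme share difference in its direction, but moved the exact p of the Pfkl share from 0.1 to 0.2 in HSCs and from 0.2 to 0.1 in macrophages. Low depth limits the Cre positive macrophage libraries, where 3 counts are 0.559 to 1.15 CPM, and the floor covers counting error only.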

Other observations

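Hypoxia-inducible genes outside glycolysis were looked at beside the enzymes, and 0 of 15 tested in HSCs and 0 of 13 in macrophages passed edgeR's adjusted threshold. In HSCs 8 had fitted log2 fold changes above 0 and 7 below, with a median of 0.08 beside -0.00 over all genes. Adm, the vasodilator adrenomedullin, was at 39.2, 26.0 and 48.2 CPM against 25.7, 10.9 and 10.5 CPM, libraries labelled Cre negative first. Kdm3a, a histone demethylase, was at 86.6, 87.0 and 108 CPM against 67.3, 69.8 and 34.6 CPM, and Vegfa, the vascular growth factor, at 16.1, 11.03 and 21.2 CPM against 23.8, 21.6 and 62.0 CPM. The Adm and Kdm3a values of the Cre positive libraries all lay below the controls and those of Vegfa above (edgeR, adjusted p = 0.777, 0.807 and 0.821). In macrophages the list had 7 above 0 and 6 below, with a median of 0.10 beside -0.16. Mxi1, a Myc antagonist, was at 41.8, 95.9 and 43.3 CPM against 40.3, 7.995 and 0 CPM (edgeR, adjusted p = 1.000).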
